A study of Homo sapiens with 12 samples.

Results

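The 10 genes described here encode the small subunits of the sliding-clamp loader (RFC2, RFC3, RFC4 and RFC5), the enzymes that trim and seal Okazaki fragments (FEN1 and LIG1) and the proteins that travel with and protect the replication fork (CLSPN, TIMELESS, TIPIN and WDHD1). They were taken by gene symbol, as 10 of the 60612 named rows of the count table, and all 10 were among the 11803 genes with enough reads to be tested. RNA was measured in CAMA-1, an established oestrogen receptor-positive human breast cancer cell line, so each group is a set of cultures of 1 line. The cells were grown in RPMI with serum and treated for 5 days with the vehicle DMSO, with abemaciclib at 100 nM, with fulvestrant at 5 nM or with both drugs, for which the labels do not restate the doses. Each of the 4 groups had 3 libraries, described as independent biological cultures. Abemaciclib inhibits the cyclin-dependent kinases CDK4 and CDK6, and fulvestrant binds the oestrogen receptor and leads to its degradation.

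When DNA is copied, the clamp loader opens the ring-shaped clamp PCNA and closes it around DNA at a primer, using a large subunit, RFC1, together with the small subunits RFC2 to RFC5. On the lagging strand DNA is made in short Okazaki fragments. FEN1 cuts the displaced flap at the start of each fragment and LIG1 joins the fragments. TIMELESS and TIPIN form a complex at the fork, CLSPN (claspin) couples the fork to the checkpoint kinases ATR and CHK1, and WDHD1 (AND-1) links the helicase to the polymerase that makes primers. Many genes of DNA replication are transcribed as cells approach and enter S phase and are targets of E2F factors, which the retinoblastoma protein represses when CDK4 and CDK6 are inhibited.

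By the GENCODE v44 annotation of GRCh38, RFC2 lies on chromosome 7 (74231499 to 74254458, minus strand), RFC3 on chromosome 13 (33818069 to 33966558, plus strand), RFC4 on chromosome 3 (186789880 to 186807058, minus strand) and RFC5 on chromosome 12 (118013588 to 118033130, plus strand). FEN1 lies on chromosome 11 (61792911 to 61797238, plus strand) and LIG1 on chromosome 19 (48115445 to 48170603, minus strand). CLSPN lies on chromosome 1 (35720218 to 35769978), TIMELESS on chromosome 12 (56416363 to 56449426), TIPIN on chromosome 15 (66336191 to 66386746) and WDHD1 on chromosome 14 (54938949 to 55027105), each on the minus strand. The reads of this assay come from the 3′ ends of transcripts. At its 3′ end RFC4 shares 18 exonic bases with EIF4A2 and RFC5 shares 186 with WSB2, each on the opposite strand, and FEN1 shares 49 bases with an exon of FADS2 on the same strand, 4210 bases from the 3′ end of FEN1. The strand setting of the counting is not given in the sources used here, so reads that fall on those shared bases cannot be assigned with certainty. EIF4A2 rose where RFC4 fell (a log2 fold change of 0.40 ± 0.11 with abemaciclib, 0.73 ± 0.11 with fulvestrant and 0.90 ± 0.11 with the combination, each against DMSO, with SE), WSB2 did not pass the test in those comparisons (0.25 ± 0.14, 0.01 ± 0.15 and 0.01 ± 0.14), and FADS2 fell (-0.38 ± 0.13, -0.86 ± 0.13 and -1.03 ± 0.13). CLSPN, LIG1 and RFC5 also share exonic bases with long non-coding RNAs on the opposite strand, 5708 or more bases from their 3′ ends. TIPIN shares 579 exonic bases with the pseudogene RPL9P25 on the same strand, 43146 bases from the 3′ end of TIPIN. RPL9P25 had 0 reads in every library. The pseudogene copies FEN1P1, RFC3P1 and RFC5P1 had 0 reads in every library.

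RefSeq promoter windows (GRCh38.p14, 250 bases before to 50 after the start site) were searched on both strands for the E2F words TTTCCCGC, TTTCGCGC, TTTGCCGC and TTTGGCGC, for CCAAT and for the CHR word TTTGAA. The members have 11 such windows, 2 of them for TIPIN. An E2F word was found in 4 of the 11, those of CLSPN, RFC3 and LIG1 and 1 of the windows of TIPIN, and 3.31% of all 35116 windows in the table hold at least 1. CCAAT was found in 4 of the 11 (RFC5, CLSPN, TIMELESS and the other window of TIPIN) and in 34.6% of all windows. TTTGAA was found in 0 of the 11 and in 15.2% of all windows. The 4 windows with an E2F word are shown so that the place and strand of each word can be seen, with every match of any word searched in capitals. All are written 5′ to 3′ in the direction of the gene, so a word on the other strand reads as its reverse complement.
CLSPN, chr1:35769929-35770228, minus strand: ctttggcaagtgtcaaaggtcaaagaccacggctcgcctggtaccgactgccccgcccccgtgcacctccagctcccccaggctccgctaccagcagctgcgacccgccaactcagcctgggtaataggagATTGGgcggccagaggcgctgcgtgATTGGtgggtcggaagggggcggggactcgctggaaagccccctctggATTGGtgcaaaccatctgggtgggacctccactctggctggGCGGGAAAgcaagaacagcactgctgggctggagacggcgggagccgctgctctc
RFC3, chr13:33817899-33818198, plus strand: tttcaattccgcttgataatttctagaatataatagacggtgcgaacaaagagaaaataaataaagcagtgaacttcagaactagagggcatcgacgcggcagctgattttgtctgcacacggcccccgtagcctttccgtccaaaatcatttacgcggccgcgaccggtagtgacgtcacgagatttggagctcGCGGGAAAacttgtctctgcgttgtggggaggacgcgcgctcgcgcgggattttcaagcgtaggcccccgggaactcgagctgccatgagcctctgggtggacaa
LIG1, chr19:48170295-48170594, minus strand: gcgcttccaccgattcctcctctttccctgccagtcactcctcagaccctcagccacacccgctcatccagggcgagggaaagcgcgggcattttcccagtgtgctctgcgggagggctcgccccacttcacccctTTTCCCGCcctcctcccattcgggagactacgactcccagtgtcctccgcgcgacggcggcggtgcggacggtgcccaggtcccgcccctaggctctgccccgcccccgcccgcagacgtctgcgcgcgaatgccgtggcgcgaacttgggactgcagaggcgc
TIPIN, chr15:66356636-66356935, minus strand: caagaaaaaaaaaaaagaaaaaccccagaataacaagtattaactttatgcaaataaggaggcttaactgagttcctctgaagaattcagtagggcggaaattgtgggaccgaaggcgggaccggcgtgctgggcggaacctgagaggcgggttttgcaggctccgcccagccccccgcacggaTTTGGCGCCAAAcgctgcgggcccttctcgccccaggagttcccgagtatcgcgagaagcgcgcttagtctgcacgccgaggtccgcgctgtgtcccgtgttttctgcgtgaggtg
The CLSPN window holds 1 E2F word on the opposite strand, beginning 5 bases before the start site, and 3 CCAAT words on the opposite strand, which no other member window has in that number. In the TIPIN window the same word lies on both strands and the matches overlap. A match is a run of letters and not evidence of binding, and the windows of RFC2, RFC4, FEN1 and WDHD1 hold none of the words searched.

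Library totals ran from 3299119 to 5164667 reads, and values are given below as CPM, read counts divided by a library size that was scaled to make the libraries comparable. Replicates correlated at 0.970 or above on the log2 CPM scale over tested genes, and fulvestrant library 3 stood farthest from its group (0.978 and 0.970 with the other two). Luminal markers summed to between 6196 and 8041 CPM in all libraries, and ESR1, which encodes the oestrogen receptor, averaged 93.3 CPM in DMSO. The oestrogen-induced gene TFF1 averaged 60.5 CPM in DMSO, 382 with abemaciclib, 1.46 with fulvestrant and 2.32 with the combination. The basal epithelial list summed to at most 1.14 CPM. The leukocyte and endothelial lists each summed to less than 1 CPM in every library (at most 0.388 and 0.846), and of 5 fibroblast markers COL1A2, LUM and DCN had 0 reads throughout while the list summed to between 17.8 and 37.0 CPM, mostly COL1A1.

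Cycling-cell genes moved with the members. The summed level of 5 such genes (MKI67, TOP2A, CCNB1, CDK1 and CCNA2) ranged from 2517 to 2762 CPM in DMSO, from 470.2 to 533 with abemaciclib, from 218 to 258 with fulvestrant and from 19.0 to 25.2 with the combination, and 5 of 5 fell in each drug group against DMSO. In bulk RNA, fewer cells in S phase and less of each transcript per cell cannot be told apart, and the part of the cycling genes in the results below was not tested.

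The first comparisons asked what each treatment did to the members against DMSO, using edgeR's quasi-likelihood test with Benjamini-Hochberg adjustment over all 11803 genes. The 3 comparisons share the DMSO libraries. With abemaciclib 10 of 10 members fell, where 20.7% of all genes tested were called lower. Their median log2 fold change was -1.30, against 0.00 over all genes. With fulvestrant 10 of 10 fell (25.7% of all genes), with a median of -1.95 against 0.01. With the combination 10 of 10 fell (27.5% of all genes), with a median of -2.32 against 0.01. In each of these comparisons the drug-treated libraries of all 10 members lay below all DMSO libraries, where the share of all genes that did not overlap in that direction was 27.2% for abemaciclib, 28.1% for fulvestrant and 30.7% for the combination. The largest adjusted p among the members was 6.7e-05 with abemaciclib, 7.0e-08 with fulvestrant and 6.2e-08 with the combination in edgeR. Summed over the members, the level was 612 ± 9.98 CPM in DMSO (SD, n = 3), 218 ± 11.1 with abemaciclib, 138 ± 5.05 with fulvestrant and 100.3 ± 16.8 with the combination.

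**Figure D1:**
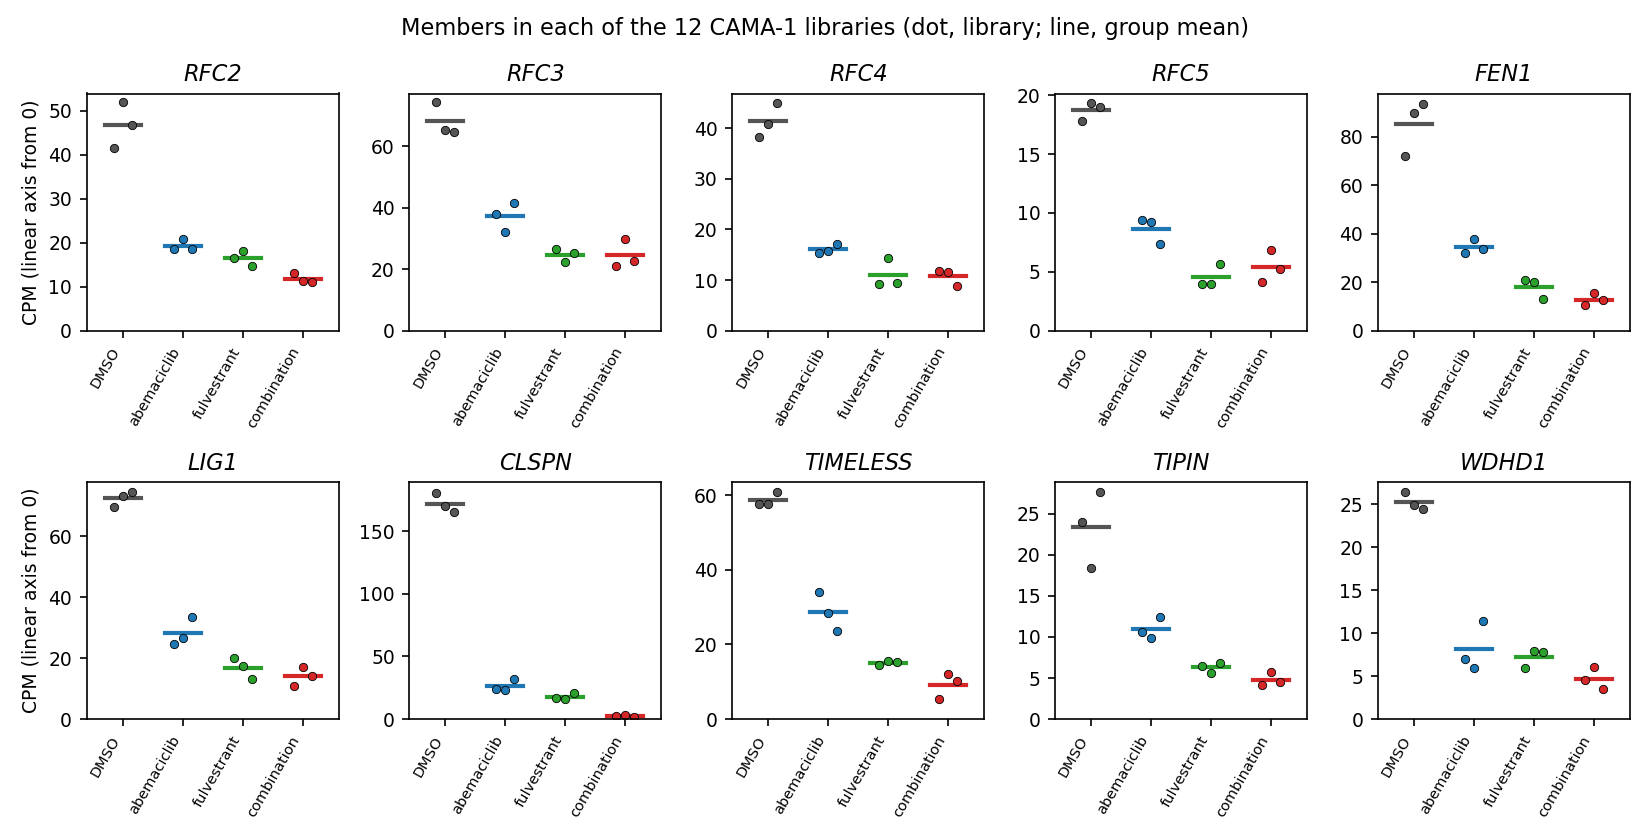
CPM of each member (vertical axes, linear from 0, a separate scale for each gene) in the 12 libraries, grouped by treatment on the horizontal axes. Each dot is a library and each line the mean of 3. In all 10 panels every drug-treated library sits below every DMSO library, and the combination libraries of CLSPN, at 1.75 to 3.31 CPM, sit close to 0.

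Among the clamp loader subunits, RFC2 stood at 41.6, 51.9 and 46.7 CPM in DMSO libraries 1 to 3, at 18.6, 20.8 and 18.4 with abemaciclib, at 16.6, 18.1 and 14.6 with fulvestrant and at 13.0, 11.4 and 11.1 with the combination. The combination libraries of RFC2 lay below all libraries of either single agent. RFC2 fell by 1.28 ± 0.14 on the log2 scale with abemaciclib, by 1.52 ± 0.14 with fulvestrant and by 2.00 ± 0.14 with the combination. The SE here, as for all log2 changes below, is approximate and derived from the test statistic.

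RFC3 had the smallest fitted fold change of the 10 members in each of the 3 comparisons, a ranking that was not tested. The next smallest lay close, at -1.03 ± 0.15 for TIMELESS with abemaciclib and -1.52 ± 0.14 for RFC2 with fulvestrant. RFC3 stood at 74.5, 65.4 and 64.7 CPM in DMSO, at 38.0, 32.2 and 41.4 with abemaciclib, at 26.4, 22.3 and 25.3 with fulvestrant and at 21.2, 29.8 and 22.5 with the combination. The fulvestrant and combination libraries overlapped. Its log2 fold change against DMSO was -0.87 ± 0.13, -1.46 ± 0.13 and -1.47 ± 0.13 in that order, so that 54.6%, 36.2% and 35.9% of the DMSO level was left.

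RFC4 stood at 38.3, 40.9 and 45.1 CPM in DMSO, at 15.4, 15.7 and 17.2 with abemaciclib, at 9.14, 14.4 and 9.34 with fulvestrant and at 11.8, 11.6 and 8.74 with the combination. Fulvestrant library 2 was the highest of the fulvestrant libraries, and the 2 groups overlapped, with combination library 3 below all fulvestrant libraries. RFC4 fell by 1.37 ± 0.16, 1.94 ± 0.17 and 1.96 ± 0.16 on the log2 scale against DMSO with abemaciclib, fulvestrant and both. RFC5, the least counted of the subunits, stood at 17.8, 19.4 and 19.0 CPM in DMSO, at 9.40, 9.27 and 7.33 with abemaciclib, at 3.95, 3.95 and 5.70 with fulvestrant and at 4.09, 6.82 and 5.24 with the combination. These rest on 14 to 33 reads in each fulvestrant or combination library. RFC5 fell by 1.11 ± 0.20, 2.03 ± 0.23 and 1.79 ± 0.21 against DMSO. Together RFC2 to RFC5 kept 46.4% of their DMSO level with abemaciclib, 32.3% with fulvestrant and 29.9% with the combination.

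FEN1, the flap endonuclease, stood at 72.1, 89.7 and 93.6 CPM in DMSO, at 32.0, 38.0 and 33.6 with abemaciclib, at 20.8, 20.03 and 13.2 with fulvestrant and at 10.3, 15.3 and 12.4 with the combination. Only the fulvestrant and combination groups overlapped, through fulvestrant library 3. FEN1 fell by 1.31 ± 0.14, 2.26 ± 0.15 and 2.74 ± 0.16 on the log2 scale against DMSO. LIG1, the ligase that joins Okazaki fragments, stood at 69.5, 73.4 and 74.6 CPM in DMSO, at 24.6, 26.5 and 33.4 with abemaciclib, at 20.01, 17.5 and 13.0 with fulvestrant and at 10.8, 17.2 and 14.0 with the combination. Again the last 2 groups overlapped. LIG1 fell by 1.37 ± 0.14, 2.11 ± 0.15 and 2.36 ± 0.15 against DMSO. Across the 12 libraries FEN1 and LIG1 had the highest correlation of any pair of members (Pearson r = 0.985 on log2 CPM, a description, since the libraries share treatments).

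CLSPN, the claspin gene, changed most in fold terms in each of the 3 comparisons with DMSO. It stood at 180.5, 170.1 and 166 CPM in DMSO, at 24.0, 23.0 and 32.1 with abemaciclib, at 17.0, 15.8 and 21.2 with fulvestrant and at 2.41, 3.31 and 1.75 with the combination. No 2 of the 4 groups overlapped. The combination values rest on 10, 16 and 9 reads, against 608 to 895 in DMSO. CLSPN fell by 2.71 ± 0.12 on the log2 scale with abemaciclib, by 3.24 ± 0.13 with fulvestrant, and its log2 fold change with the combination was -6.10 ± 0.18. With so few reads in the combination, the SE of that last value may be too small. Its mean CPM with abemaciclib was 6.53-fold below that of the vehicle, with fulvestrant 9.55-fold and with both drugs 69.2-fold. Of all CPM counted for the 10 members, CLSPN made up 28.1% ± 1.70 in DMSO (SD, n = 3), 12.0% ± 1.63 with abemaciclib, 13.1% ± 2.57 with fulvestrant and 2.46% ± 0.520 with the combination. Without CLSPN the other 9 members summed to 43.6%, 27.3% and 22.2% of their DMSO level with abemaciclib, fulvestrant and both.

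TIMELESS stood at 57.6, 57.8 and 60.8 CPM in DMSO, at 34.0, 28.5 and 23.5 with abemaciclib, at 14.6, 15.5 and 15.3 with fulvestrant and at 5.29, 12.2 and 10.3 with the combination. Its groups did not overlap, and the 3 fulvestrant libraries lay within 1 CPM of each other. TIMELESS fell by 1.03 ± 0.15, 1.96 ± 0.17 and 2.64 ± 0.18 on the log2 scale against DMSO. Its partner TIPIN stood at 24.0, 18.4 and 27.7 CPM in DMSO, at 10.6, 9.93 and 12.4 with abemaciclib, at 6.42, 5.64 and 6.84 with fulvestrant and at 4.09, 5.79 and 4.47 with the combination. The fulvestrant and combination libraries overlapped. TIPIN fell by 1.09 ± 0.19, 1.87 ± 0.21 and 2.27 ± 0.21 against DMSO. The ratio of TIMELESS to TIPIN CPM ranged from 2.19 to 3.13 in DMSO, from 1.90 to 3.21 with abemaciclib, from 2.23 to 2.75 with fulvestrant and from 1.29 to 2.30 with the combination, so all 4 groups overlapped.

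WDHD1 stood at 26.4, 24.9 and 24.4 CPM in DMSO, at 7.00, 5.96 and 11.4 with abemaciclib, at 5.93, 7.90 and 7.75 with fulvestrant and at 4.57, 6.00 and 3.50 with the combination. The 3 drug groups overlapped one another, with abemaciclib library 3 the highest. WDHD1 fell by 1.65 ± 0.21, 1.81 ± 0.22 and 2.42 ± 0.23 on the log2 scale against DMSO.

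**Figure D2:**
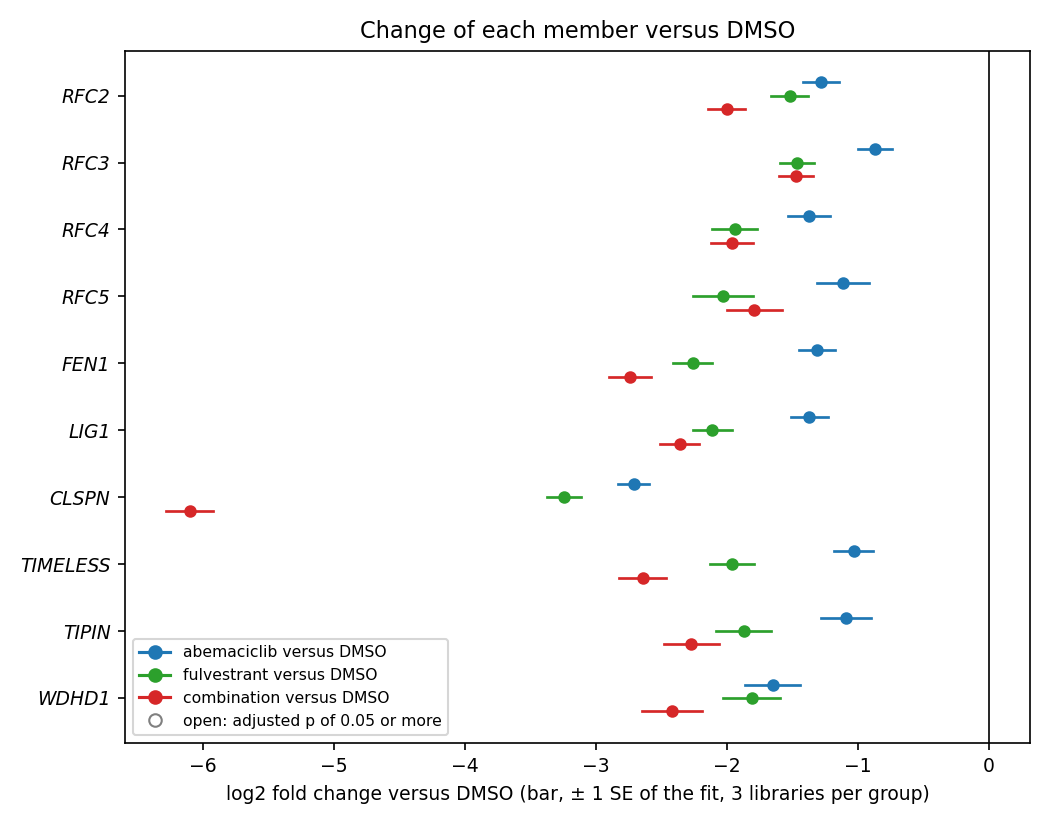
Log2 fold change of each member against DMSO (horizontal axis) for abemaciclib, fulvestrant and the combination. Bars are 1 SE, approximate and derived from the test statistic, with 3 libraries per group. All 30 points lie to the left of 0, and the combination point of CLSPN, at -6.10, lies apart from those of the other members, which run from -1.47 to -2.74.

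Fulvestrant was then compared directly with abemaciclib. In all, 8 members were lower with fulvestrant, where 15.5% of all genes tested were called lower, and the median over the 10 was -0.66 against 0.01 over all genes. The largest differences were in FEN1 (-0.95 ± 0.16, edgeR adjusted p = 6.3e-05), TIMELESS (-0.93 ± 0.18, adjusted p = 2.7e-04) and RFC5 (-0.93 ± 0.25, adjusted p = 0.00633). RFC2 (-0.24, 95% interval from -0.54 to 0.06) and WDHD1 (-0.15, from -0.65 to 0.34) did not pass. The groups did not overlap in 9 members, all but WDHD1, and in that direction in 21.0% of all genes. RFC4 (-0.57 ± 0.19, adjusted p = 0.0234) no longer passed without fulvestrant library 3 (-0.46, adjusted p = 0.0936), without fulvestrant library 1 (-0.45, 0.120) or without abemaciclib library 3 (-0.52, 0.0745), nor when only the libraries of these 2 groups were fitted (-0.56, 0.0504). CLSPN (-0.53 ± 0.15, adjusted p = 0.00926) no longer passed without abemaciclib library 3 (-0.38, 0.0873).

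The combination was compared with each single agent to ask what the second drug added. Adding fulvestrant to abemaciclib lowered 10 of 10 members, where 17.7% of all genes tested were called lower, with a median log2 fold change of -0.88 against 0.01 over all genes. CLSPN changed most (-3.39 ± 0.21, edgeR adjusted p = 7.5e-13), followed by TIMELESS (-1.61 ± 0.19, adjusted p = 1.9e-07) and FEN1 (-1.43 ± 0.17, adjusted p = 1.5e-07). TIPIN fell by 1.18 ± 0.23 and LIG1 by 0.99 ± 0.17. The clamp loader subunits fell by 0.59 to 0.71, with RFC4 at -0.59 ± 0.18 (adjusted p = 0.0132) and RFC5 at -0.68 ± 0.24 (adjusted p = 0.0270). The 2 groups did not overlap in 9 members, all but WDHD1 (-0.77 ± 0.26, adjusted p = 0.0246), and in 24.7% of all genes in that direction. Without combination library 3, RFC4 (-0.46), RFC5 (-0.65) and WDHD1 (-0.58) no longer passed and 7 members remained called. RFC5 also missed the threshold without abemaciclib library 1 (-0.62) or 2 (-0.64) or combination library 1 (-0.53), and WDHD1 without abemaciclib library 3 (-0.48) or combination library 1 (-0.75).

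Adding abemaciclib to fulvestrant lowered 1 of 10 members past the threshold, CLSPN, where 1.63% of all genes tested were called lower. CLSPN fell from 18.0 to 2.49 mean CPM, a log2 fold change of -2.86 ± 0.23 (edgeR adjusted p = 1.0e-09), and the 3 combination libraries lay below the 3 fulvestrant libraries. The median over the 10 members was -0.43, against 0.00 over all genes. At an unadjusted p under 0.05, 5 members passed, CLSPN included. Of all 11803 genes tested, 1368 passed at that threshold, rising ones included. TIMELESS gave -0.68 (95% interval from -1.10 to -0.27, adjusted p = 0.118), RFC2 -0.47 (from -0.80 to -0.15, adjusted p = 0.196), FEN1 -0.48 (from -0.85 to -0.12, adjusted p = 0.261) and WDHD1 -0.62 (from -1.15 to -0.08, adjusted p = 0.365). TIPIN (-0.40, from -0.91 to 0.11) and LIG1 (-0.25, from -0.61 to 0.11) had intervals that included 0, as had RFC3 (-0.01, from -0.30 to 0.28), RFC4 (-0.02, from -0.41 to 0.36) and RFC5 (0.24, from -0.29 to 0.77). The groups did not overlap, with the combination lower, in RFC2, CLSPN and TIMELESS, and in 7.44% of all genes. FEN1 passed without fulvestrant library 3 (-0.67, adjusted p = 0.0223), and TIMELESS passed without combination library 2 (-0.92, adjusted p = 0.0447).

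**Figure D3:**
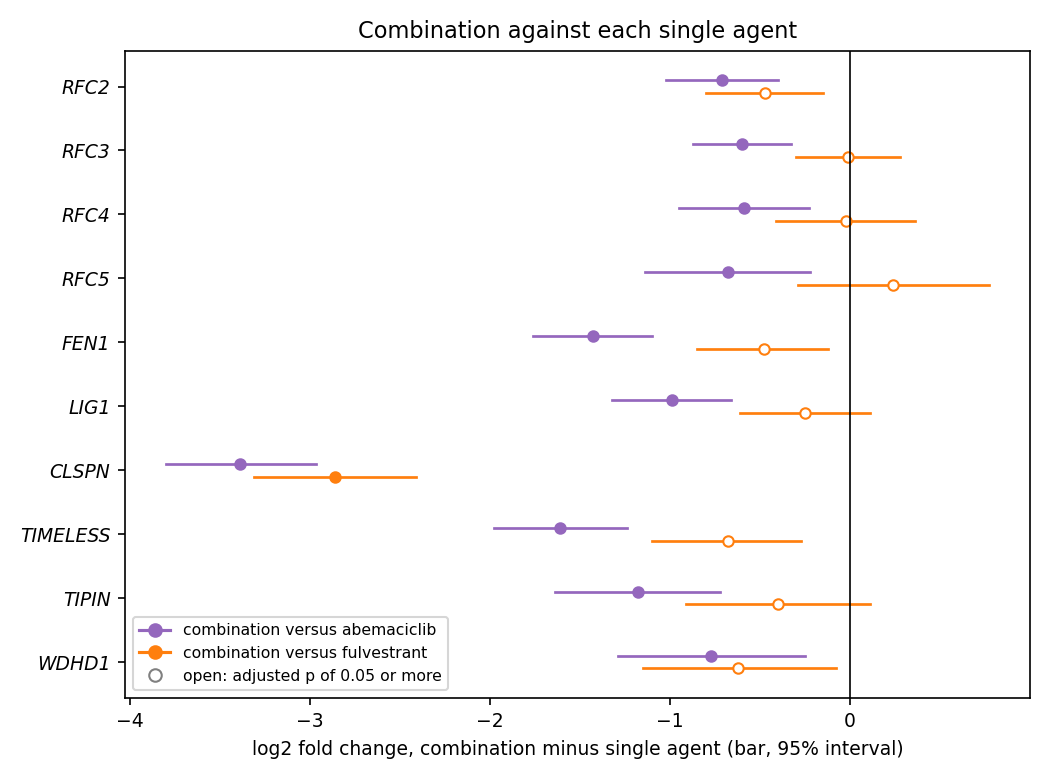
Log2 fold change of each member in the combination against abemaciclib and against fulvestrant (horizontal axis), with 95% intervals and 3 libraries per group. Filled points passed the threshold of 0.05 on the adjusted p and open points did not. All points against abemaciclib are filled, and against fulvestrant only CLSPN, at -2.86, is.

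The interaction of the drugs asks whether abemaciclib changed a member by the same factor with fulvestrant as without it. For a gene that both drugs lower, a positive value means a smaller fall with both drugs than the sum of the single-agent falls on the log2 scale. In all, 7 members had a positive interaction past the threshold, and 0 had a negative one. Of all genes tested, rising ones included, 9.49% had a positive and 11.6% a negative one. The median was 0.84 over the members and -0.01 over all genes. RFC4 (1.35 ± 0.25, edgeR adjusted p = 3.0e-04) and RFC5 (1.35 ± 0.34, adjusted p = 0.00474) had the largest, followed by LIG1 (1.13 ± 0.23, adjusted p = 8.7e-04), WDHD1 (1.04 ± 0.35, adjusted p = 0.0343), RFC3 (0.86 ± 0.19, adjusted p = 0.00198), FEN1 (0.83 ± 0.23, adjusted p = 0.0120) and RFC2 (0.81 ± 0.22, adjusted p = 0.00759). The 3 members that did not pass were all fork protection genes. TIPIN gave 0.69 (95% interval from 0.06 to 1.33, adjusted p = 0.131), TIMELESS 0.34 (from -0.17 to 0.86, adjusted p = 0.380) and CLSPN -0.14 (from -0.67 to 0.38, adjusted p = 0.748). For CLSPN the interval included 0, so a change with both drugs equal to the sum of the single-agent log2 changes was not distinguished from the measured one. Positive values were also called among genes that work beside the members, described below. Of 12 replisome core genes 6 were positive past the threshold and 1 negative (median 0.98). The negative one, MCM10, had 0 or 1 read in each combination library. Of other clamp loaders and clamps 4 of 9 were positive (median 0.86). For Okazaki fragment genes it was 3 of 11 (0.58) and for fork checkpoint genes 4 of 12 (0.37). Of 6 relatives of FEN1 and LIG1 0 were called (median 0.12). The cycling genes differed, with 4 of 5 negative past the threshold (MKI67 at -1.06 ± 0.23 and TOP2A at -1.30 ± 0.15, for example). CCNB1, at 0.35 ± 0.24, did not pass. CDK1 and CCNA2 rest on 1 to 6 and 0 or 1 reads in the combination libraries. The part of the cycling genes in the result was not tested. The call of WDHD1 was lost when any of 7 libraries was left out (values from 0.80 to 1.04) and that of FEN1 without combination library 2 (0.66, adjusted p = 0.0724).

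**Figure D4:**
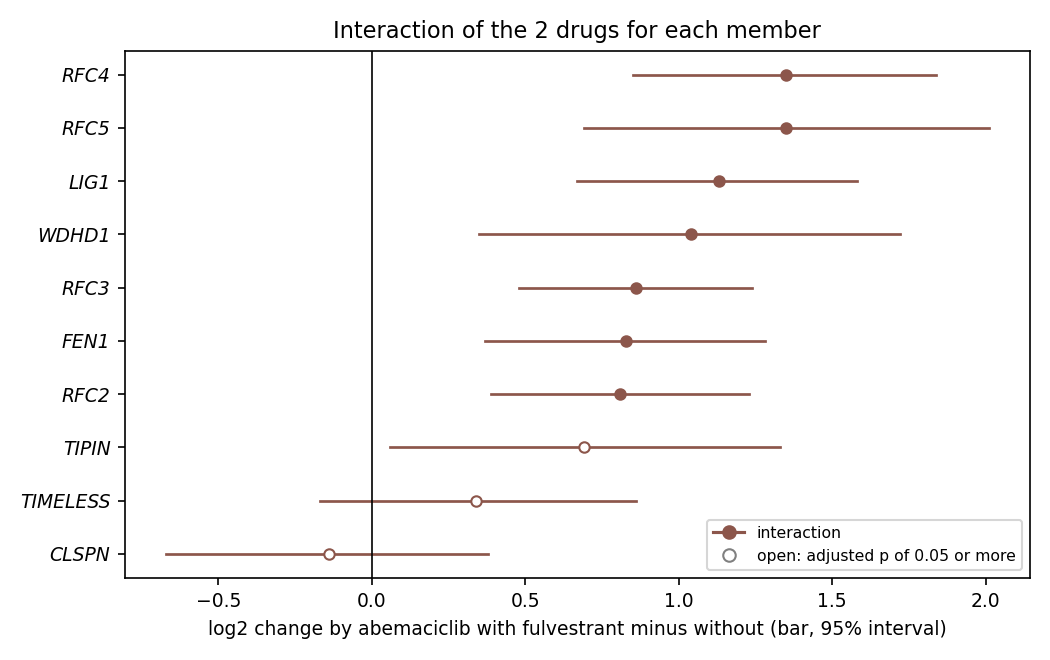
Interaction of abemaciclib and fulvestrant for each member (horizontal axis, the log2 change by abemaciclib with fulvestrant minus that without), with 95% intervals, ordered by value. The 7 filled points, from 0.81 to 1.35, passed the threshold of 0.05 on the adjusted p, and TIPIN, TIMELESS and CLSPN, drawn open, did not.

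The genes that work beside the members were taken as 5 lists and are described by counts. For all 5 lists the shares over all genes tested apply. These were 20.7% called lower with abemaciclib, 25.7% with fulvestrant and 27.5% with the combination, with medians of 0.00, 0.01 and 0.01. Of 9 tested genes of other clamp loaders and clamps, 6 fell with abemaciclib, 7 with fulvestrant and 7 with the combination, with medians of -0.68, -0.70 and -0.78. RFC1, the large subunit of the clamp loader, stood at 208 ± 12.7 CPM in DMSO (SD, n = 3), 147 ± 1.92 with abemaciclib, 136 ± 13.0 with fulvestrant and 121 ± 6.50 with the combination. Its log2 fold change against DMSO was -0.50 ± 0.08, -0.61 ± 0.08 and -0.78 ± 0.08. The ratio of RFC1 CPM to the mean CPM of RFC2 to RFC5 in the same library was 4.55 to 5.17 in DMSO, 7.07 to 7.46 with abemaciclib, 8.31 to 10.7 with fulvestrant and 7.96 to 10.3 with the combination, so each drug group lay above DMSO. PCNA, the clamp itself, averaged 208 CPM in DMSO, 40.5 with abemaciclib, 45.2 with fulvestrant and 27.3 with the combination (-2.37 ± 0.11, -2.20 ± 0.11 and -2.93 ± 0.12 against DMSO). RAD1, of the checkpoint clamp, changed by -0.68 ± 0.10, -0.70 ± 0.10 and -0.42 ± 0.10. RAD17, which loads that clamp and was named after its values were seen, did not pass in any of the 3 comparisons (0.24 ± 0.12 with abemaciclib and 0.15 ± 0.12 with the combination, for example).

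Of 11 tested genes of Okazaki fragment synthesis and processing, 10 fell with abemaciclib, 11 with fulvestrant and 10 with the combination, with medians of -0.97, -1.29 and -1.32. RNASEH2C, a subunit of the nuclease that removes RNA from DNA, changed by -0.44 ± 0.08, -0.42 ± 0.08 and -0.77 ± 0.08 against DMSO, and POLD3, of DNA polymerase delta, by -1.73 ± 0.11, -1.64 ± 0.11 and -1.88 ± 0.11. POLD2 of the same polymerase gave -0.20 ± 0.11 with abemaciclib, which did not pass, and fell by 0.98 ± 0.12 with fulvestrant and by 1.08 ± 0.12 with both. Of 6 tested relatives of FEN1 and LIG1, 3 fell with abemaciclib, 4 with fulvestrant and 4 with the combination, with medians of -0.33, -0.56 and -0.65. LIG3, the ligase of base excision and mitochondrial repair, averaged 85.7 CPM in DMSO and 82.5 with abemaciclib, and rose to 103 with fulvestrant and to 107 with the combination (0.26 ± 0.09, edgeR adjusted p = 0.0113, and 0.32 ± 0.08, adjusted p = 0.00236). It was the only gene of the 5 lists to be called higher in any of the 3 comparisons with DMSO. XRCC1, its scaffold, fell by 0.52 ± 0.15 with the combination.

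Of 12 fork checkpoint and remodelling genes, 6 fell with abemaciclib, 8 with fulvestrant and 9 with the combination, with medians of -0.44, -0.82 and -0.97. HLTF, a fork remodelling helicase, changed by -0.89 ± 0.11, -0.67 ± 0.10 and -0.66 ± 0.10, TOPBP1, the activator of ATR, by -0.84 ± 0.12, -1.12 ± 0.12 and -1.12 ± 0.12, and RPA3, of the single-strand binding complex, by -0.89 ± 0.11, -0.98 ± 0.11 and -1.36 ± 0.11. ATR itself, the kinase that CLSPN serves, gave -0.04, -0.37 and -0.21 and did not pass, nor did ETAA1 or SMARCAL1 in any of the 3. These 3 genes were named after their values were seen. Of 12 replisome core genes, 12 fell in each of the 3 comparisons, with medians of -1.39, -2.48 and -2.86. MCM2 and MCM7, of the helicase ring, fell by 3.27 ± 0.18 and 2.75 ± 0.11 with the combination. MCM10, which helps to activate the helicase, averaged 109 CPM in DMSO, 13.4 with abemaciclib and 9.41 with fulvestrant and had 0 or 1 read in each combination library, so no fold is given there.

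**Figure D5:**
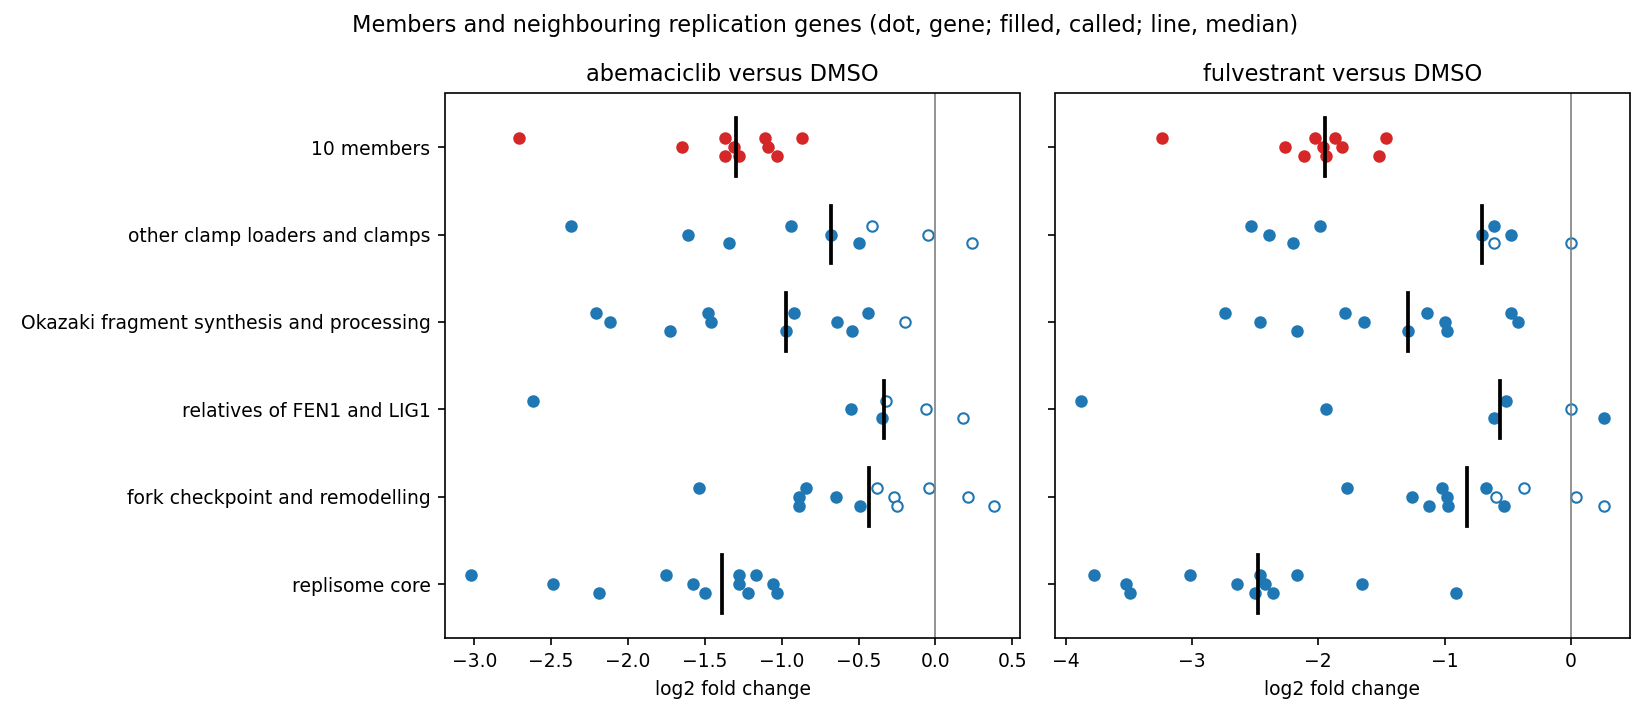
Log2 fold change against DMSO (horizontal axes) of the 10 members and of the tested genes of the 5 neighbouring lists, with abemaciclib on the left and fulvestrant on the right. Each dot is a gene, filled where the adjusted p was under 0.05, and each vertical line is a list's median. The members' medians, -1.30 and -1.95, lie between those of the replisome core (-1.39 and -2.48) and those of the other 4 lists.

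Outside the members and these lists, the 5 genes whose log2 CPM followed the members' mean most closely over the 12 libraries, among 8427 with a mean of at least 10 CPM, were RAD51AP1 (Pearson r = 0.994), NAP1L1 (0.992), ATAD2 (0.991), MCM3 (0.990) and SMC4 (0.989). NAP1L1 averaged 485 CPM in DMSO and 205 with the combination, and RAD51AP1 averaged 30.7 and 1.49, so the closeness is of pattern and not of size. Among the members themselves the pairwise r ran from 0.819 (RFC5 with CLSPN) to 0.985. After removal of the group means it ran from -0.658 to 0.835 with a median of 0.199, and these values are descriptions over libraries that share treatments.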

How the data were processed

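Libraries were made with a 3′ mRNA kit (QuantSeq 3′ FWD), read single-ended on a NextSeq instrument, trimmed with BBDuk, aligned with STAR to hg38 and counted by the authors with featureCounts 2.0.1 on GENCODE. The deposited values are raw counts per gene, with no unique molecular identifiers named. All 44 rows without a gene name had 0 reads. The sources used here do not state the strand setting. Counts of the 12 libraries were fitted together in edgeR 4.0.16 (R 4.3.3) with TMM factors, filterByExpr (minimum count 10, minimum total 15), 4 group means and the quasi-likelihood F test (two-sided), with a threshold of 0.05 after Benjamini-Hochberg adjustment over 11803 genes. The test was first run on simulated counts with the same spread for every gene and far fewer changed genes than here. That run does not show how the test behaves under the conditions of these data. The study's own tool, DESeq2 (here 1.42.0), other scaling factors, other filters, the compared groups alone, a replicate block and leaving out each library were alternatives. CPM uses TMM-scaled library sizes. Each SE of a log2 fold change is its absolute value divided by the square root of the F statistic, so it is approximate. The 95% intervals are normal, from that SE. Both may be too narrow where reads are few, as for CLSPN with the combination. An exact permutation test of 3 libraries against 3 cannot go below p = 0.1, so none is given. In each neighbour list the 3 tested genes of highest mean CPM and any gene called against the members' direction were named. Of these, 1 gene is not reported here. The members and lists were chosen with earlier results of these data known. Exon overlaps are from GENCODE v44, not the annotation of the counts, and promoter windows from RefSeq. Library totals ran from 3299119 to 5164667, which limits the precision of members with few reads.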

Additional observations from a re-analysis of the deposited data

Results flagged for a closer look

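For 7 members the change by abemaciclib with fulvestrant differed from that without it, by the edgeR interaction test in 12 libraries. A positive interaction was called in 9.49% of all genes tested. The calls of WDHD1 and FEN1 did not hold in every fit with a library left out. The difference on the log2 scale was 0.81 for RFC2, 0.86 for RFC3, 1.35 for RFC4, 1.35 for RFC5, 0.83 for FEN1, 1.13 for LIG1 and 1.04 for WDHD1. RFC4, as an example, fell by 1.37 with abemaciclib alone and differed by -0.02 when abemaciclib was added to fulvestrant. Of the fork genes CLSPN, TIMELESS and TIPIN did not pass, and whether their interactions differ from those of the other members was not tested.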

How the results depend on the processing

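The counts of 10 members lower in each drug group against DMSO held under DESeq2, RLE and upper-quartile factors, library totals, no filter, the compared groups alone, the replicate block and every left-out library, and became 9 where at least 10 reads were required in every library, since CLSPN was then not tested. Added to fulvestrant, abemaciclib lowered 1 member, but 0 with at least 10 reads in every library (CLSPN not tested), 2 with no filter (TIMELESS, -0.68, adjusted p = 0.0312) and 1 to 2 when libraries were left out. Of all genes, 227 were called in that comparison, 91 with at least 10 reads in every library, 125 with the 2 groups alone, 146 without combination library 3 and 588 without fulvestrant library 3. Left-out libraries gave 7 to 10 members for the combination against abemaciclib, 6 to 8 for fulvestrant against abemaciclib and 5 to 7 for the interaction. DESeq2 called 9 (not RFC5, -0.69, adjusted p = 0.0532), 8 and 6 (not WDHD1, 1.03, adjusted p = 0.0512). With library totals unscaled, the interaction's median over all genes moved from -0.01 to 0.10 and the share of its calls that were negative from 55.1% to 38.5%, and RFC3 (0.04) and RFC4 (0.02) turned positive against fulvestrant. Small values, none of them called, also changed sign when libraries were left out: RFC3 ran from -0.18 to 0.07 and RFC4 from -0.14 to 0.20 in the combination against fulvestrant, WDHD1 from -0.33 to 0.14 in fulvestrant against abemaciclib and the CLSPN interaction from -0.43 to 0.06. The causes were not tested. No shared deviation of same-numbered libraries was seen (r from -0.215 to 0.119, and 5 of 12 libraries correlated best with their own number). Whether same-numbered cultures were handled together is not known from these values. With the replicate block the counts of members were 10, 10, 10, 10, 1, 8 and 7, the same as without it. Depth limits RFC5, TIPIN, WDHD1 and CLSPN, which have at most 33 reads in each combination library.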
